A study of Mus musculus with 16 samples.

Results

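The collagen genes of mouse inguinal white adipose tissue (iWAT, the subcutaneous fat pad of the groin) were taken as every protein-coding gene whose symbol names a collagen chain (Col, a type number, a, a chain number). The rule found 44 of the 54532 genes measured, of which 22046 are protein coding. By structural class, 11 are fibrillar, 9 are fibril-associated with interrupted triple helices (FACIT), 6 form the basement membrane network of type IV, 6 form the beaded filaments of type VI, and 12 are of other kinds. RNA was sequenced from iWAT of male mice that were 8 to 10 weeks old at the start, as 16 samples, 4 in each of 4 groups. Apn-Has2 mice (Has2_TG) carry a hyaluronan synthase transgene, and Apn-PH20 mice (PH20_TG) carry the hyaluronidase PH20, encoded by Spam1. In both lines rtTA is driven by the adiponectin promoter, so that doxycycline turns on the TRE transgene in adipocytes. The controls (Has2_WT and PH20_WT) were littermates carrying Apn-rtTA, and every mouse, control or transgenic, was given doxycycline in its chow (200 mg/kg, 5 days). The study set more hyaluronan against less hyaluronan, a sugar polymer of the extracellular matrix, and each study was compared here with its own controls. All values below are FPKM (fragments scaled by the length of the gene and by the size of the library, as the authors computed them), so that levels can be compared between genes per length. Where 4 values of a group are given, they stand in the order of the library numbers.

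Collagens are trimeric matrix proteins whose chains repeat a triplet that opens with glycine, which lets them wind into a triple helix. Fibrillar collagens (types I, II, III, V, XI, XXIV and XXVII) have a long unbroken helix and assemble into banded fibrils. FACITs decorate the surface of those fibrils. Type IV chains form the sheet-like network under endothelium and around each adipocyte, and type VI chains form beaded microfilaments that are abundant around fat cells. In adipose tissue the fibrillar and FACIT chains are known as products of fibroblasts and adipocyte progenitors, while type IV is made by adipocytes and endothelial cells too.

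The glycine repeat was read from the longest complete coding sequence of each gene (GENCODE mouse release 21, build GRCm38), since it is the feature that all classes share and that sets them apart. The sequences shown are 60 codons from the middle of the longest uninterrupted repeat of the most abundant member of each class in iWAT. Capitals mark the glycine codons.
Col3a1 (fibrillar, codons 650 to 709): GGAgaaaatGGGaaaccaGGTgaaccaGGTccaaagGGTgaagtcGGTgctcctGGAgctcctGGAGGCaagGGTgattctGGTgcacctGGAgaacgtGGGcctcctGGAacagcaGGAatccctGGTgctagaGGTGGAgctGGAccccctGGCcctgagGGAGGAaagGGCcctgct
Col14a1 (FACIT, codons 1535 to 1594): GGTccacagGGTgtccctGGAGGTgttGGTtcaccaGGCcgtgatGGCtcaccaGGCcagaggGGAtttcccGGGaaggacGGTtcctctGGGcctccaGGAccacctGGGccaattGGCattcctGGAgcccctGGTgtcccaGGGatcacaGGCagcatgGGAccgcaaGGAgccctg
Col4a1 (basement membrane, codons 73 to 132): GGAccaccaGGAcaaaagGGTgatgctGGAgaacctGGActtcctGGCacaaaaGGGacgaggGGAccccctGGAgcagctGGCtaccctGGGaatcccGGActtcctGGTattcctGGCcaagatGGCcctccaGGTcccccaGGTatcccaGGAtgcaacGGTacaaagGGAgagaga
Col6a1 (beaded filament, codons 355 to 414): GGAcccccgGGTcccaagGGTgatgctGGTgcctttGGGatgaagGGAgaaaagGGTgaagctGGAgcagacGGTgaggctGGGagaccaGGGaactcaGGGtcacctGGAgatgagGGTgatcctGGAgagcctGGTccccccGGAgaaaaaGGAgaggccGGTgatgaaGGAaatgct
Col15a1 (other, codons 644 to 703): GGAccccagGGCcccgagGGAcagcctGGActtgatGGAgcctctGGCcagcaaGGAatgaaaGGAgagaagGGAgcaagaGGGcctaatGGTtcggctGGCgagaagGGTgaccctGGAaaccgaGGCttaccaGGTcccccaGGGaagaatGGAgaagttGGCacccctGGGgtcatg

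In each of the 5 stretches a glycine codon opens every triplet. The classes differed in how long that held. The longest run in a fibrillar chain was 216 to 344 triplets (median 338), and 9 of the 11 fibrillar chains had a run of 337 or more. Col24a1 and Col27a1 had shorter runs, of 216 and 217 triplets. In the FACIT class the longest run was 32 to 113 triplets, and in Col14a1 runs of at least 5 triplets held only 13.8% of the residues. Type IV chains also kept short runs (39 to 66 triplets), but they had 22 to 27 of them, which together held 74.9% to 78.8% of the residues. Col4a1 is an example, and the next stretch shows the end of its longest run, where 10 codons stand between that run and the next one.
Col4a1 (across the end of the longest run, codons 133 to 192): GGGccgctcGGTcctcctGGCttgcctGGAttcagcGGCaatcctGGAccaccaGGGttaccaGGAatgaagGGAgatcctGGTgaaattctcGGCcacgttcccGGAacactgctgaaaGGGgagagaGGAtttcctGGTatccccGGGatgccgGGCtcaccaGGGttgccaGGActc
In the type VI chains the runs held 10.0% to 31.9% of the residues. 87 triplets was the longest run in both Col6a1 and Col6a2, and Col6a3 had 45. Col15a1 and Col18a1, the multiplexins, whose helices are broken many times, had a longest run of 30 triplets each.

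**Figure D1:**
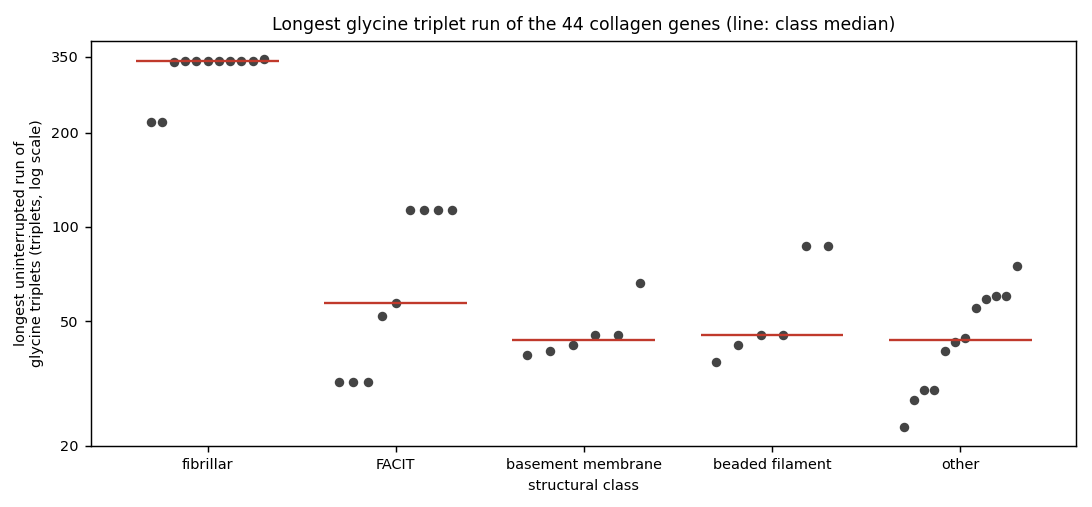
Longest uninterrupted run of glycine triplets in each of the 44 collagen genes by structural class, on a log axis in triplets; each point is a gene and the line is the class median. The fibrillar genes sit at 216 to 344 triplets, above every gene of the other classes, which reach at most 113.

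Depth lay between 14421692 and 26751729 reads on genes, and collagens took 0.631% to 2.11% of them. The transgenes were looked at first. Has2 was at 0.806, 0.474, 0.417 and 0.643 FPKM in Has2_WT and at 2.27, 1.86, 3.24 and 2.97 in Has2_TG, with no overlap. Reads of the transgene and of the endogenous Has2 gene cannot be told apart in these values. Spam1 had no read in the 12 libraries of the other groups, and it had 6, 12 and 5 reads in PH20_TG2, PH20_TG3 and PH20_TG4. The library labelled PH20_TG1 had 0 Spam1 reads, which allows up to 3 reads, so its label is not borne out by the transgene. Has2 was at 3.32 and 3.26 FPKM in the library labelled PH20_TG1 and in PH20_TG4, above every Has2_TG library, against 0.380 and 0.0990 in PH20_TG2 and PH20_TG3. Adipocyte markers were abundant in every library, with the 7 markers summing to 4222 to 9640 FPKM. B cell markers summed to 2.95 FPKM or less in Has2_TG and 3.22 or less in PH20_TG, where 2 and 4 of the 6 markers were called lower. They reached 265 in Has2_WT and 288 in PH20_WT, where Has2_WT1, Has2_WT2, PH20_WT1 and PH20_WT3 stood apart, and collagen counts are given with and without these 4 libraries. Skeletal muscle markers summed to 207 to 864 FPKM in PH20_WT and 9.35 to 245 in PH20_TG. In the Has2 study they summed to 22.1 to 93.4 FPKM in Has2_WT and to 344, 722, 7.92 and 10.1 in Has2_TG.

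The collagens spanned a wide range of levels. Over the 16 libraries, 5 members had a mean of at least 100 FPKM, namely Col3a1 (331), Col1a1 (223), Col4a1 (158), Col1a2 (131) and Col4a2 (114). Another 9 had a mean of 10 to under 100, 6 had 1 to under 10, and 24 were under 1 FPKM. The 3 highest made up 51.6% of the summed collagen FPKM and the 10 highest 92.6%. Differences were tested with limma on log2(FPKM + 0.1) where a gene averaged 50 reads or more, which left 26 members in the Has2 study and 27 in the PH20 study. A gene was called at an unadjusted p under 0.05, and the p adjusted over every gene in the fit follows each named call. The study's methods give a p-value threshold of 0.05 with DESeq2, without saying whether it was adjusted. Ranges in brackets after a log2 change are its 95% interval.

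**Figure D2:**
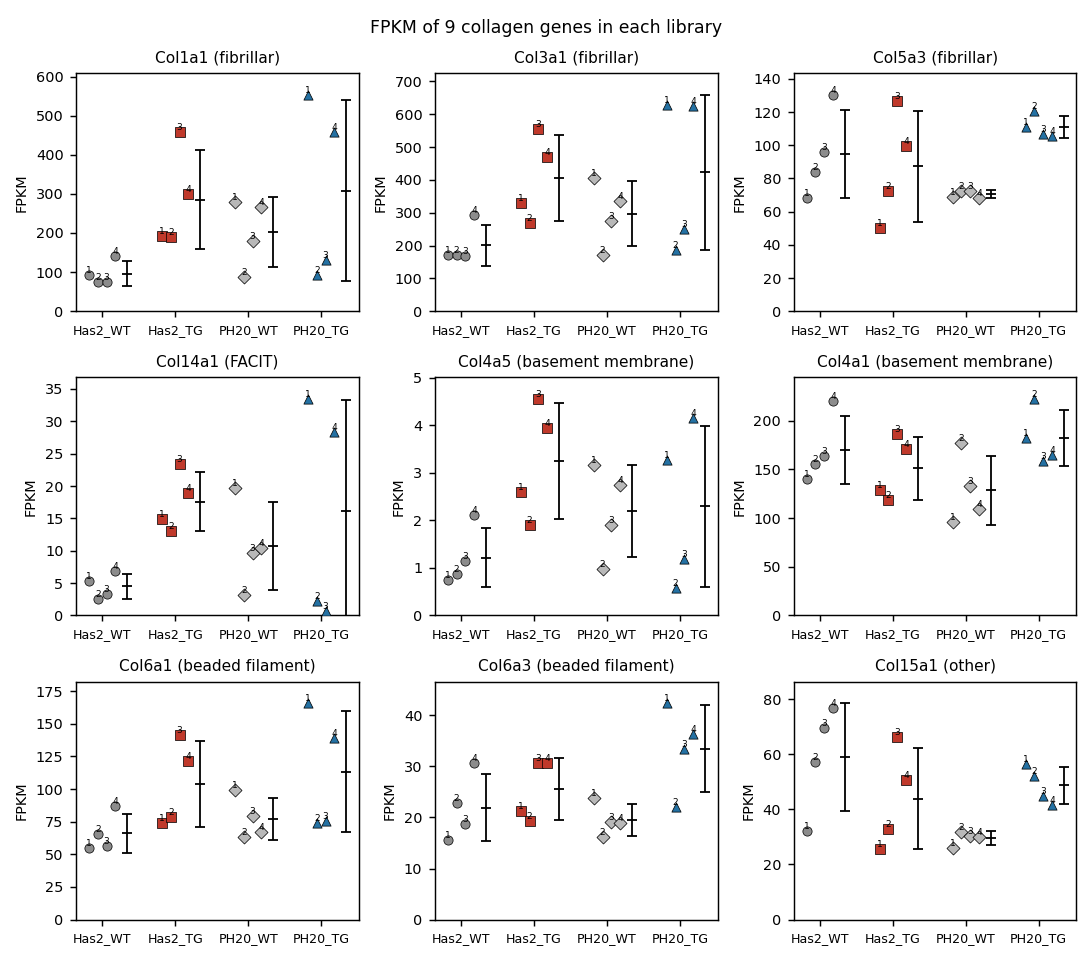
FPKM of 9 collagen genes in each library (numbered points, linear axes from 0) with the group mean and SD (bar, n = 4). Col1a1 and Col14a1 do not overlap between Has2_WT and Has2_TG, while Col5a3 and Col15a1 do not overlap between PH20_WT and PH20_TG; in PH20_TG, libraries 1 and 4 are far above 2 and 3 for Col1a1, Col3a1, Col14a1 and Col4a5.

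In the Has2 study, 12 of the 26 tested collagens were higher in Has2_TG and 0 were lower, against 6.25% of all tested genes called higher and 3.75% called lower. The median log2 change of the 26 was 0.52, against -0.03 over all 12606 genes tested. By class, 5 of 8 fibrillar, 3 of 4 FACIT, 2 of 5 basement membrane, 2 of 4 beaded filament and 0 of 5 other members were higher. After adjustment 0 of the 26 collagens passed at 0.05, where 0.103% of all genes passed as higher, and the lowest adjusted p among collagens was 0.0540, that of Col14a1. The groups did not overlap for Col1a1, Col1a2, Col14a1 and Col16a1, which were higher in every Has2_TG library (4 of 26, against 4.08% of all genes). Without Has2_WT1 and Has2_WT2, the libraries rich in B cell markers, 5 collagens remained higher, namely Col1a1, Col1a2, Col3a1, Col14a1 and Col16a1, and Col15a1 was called lower. With each library left out in turn, 8 to 14 were higher, and Col15a1 (without Has2_WT1) or Col28a1 (without Has2_WT3) was lower.

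The type I chains, the main protein of connective tissue fibrils, were among the members with the largest changes. Col1a1 (ENSMUSG00000001506, chromosome 11 from 94936224 to 94953042, strand +, GRCm38) was at 92.6, 73.7, 74.4 and 141 FPKM in Has2_WT and at 193, 189, 458 and 299 in Has2_TG. Every Has2_TG library lay above every control. The log2 change of Col1a1 was 1.53 (SE 0.32, adjusted p = 0.0849), and 1.38 without the libraries rich in B cell markers. Col1a2 (ENSMUSG00000029661, chromosome 6 from 4504814 to 4541544, strand +), its partner in the type I trimer, was at 59.1, 48.6, 46.2 and 96.7 FPKM in Has2_WT and 128, 118, 241 and 194 in Has2_TG. These groups did not overlap either, with a log2 change of 1.44 (SE 0.29, adjusted p = 0.0842).

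Col3a1 (ENSMUSG00000026043, chromosome 1 from 45311538 to 45349706, strand +), the type III chain of pliable fibrils, was at 172, 169.9, 167 and 294 FPKM in Has2_WT and 329.6, 269.6, 555 and 469.6 in Has2_TG. Has2_WT4 overlapped the transgenic group, and the other 3 controls lay below it. Its log2 change was 1.00 (SE 0.28, adjusted p = 0.199). The 150 bases before its start were read from RefSeq (GRCm38.p6, chr1:45311388-45311537, strand +), since it is the most abundant collagen. Capitals mark TATAAA, searched on the given strand, and neither CCAAT nor GGGCGG was in these 150 bases on either strand.
Col3a1: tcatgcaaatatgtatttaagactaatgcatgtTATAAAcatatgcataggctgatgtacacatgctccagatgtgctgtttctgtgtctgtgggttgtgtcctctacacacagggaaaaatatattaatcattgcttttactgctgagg
Promoter windows of 300 bases, 250 before and 50 after the start, were held for 35 of the 44 members, in 38 entries. TATAAA was in 13.2% of these entries and in 8.32% of all 32851 promoters, CCAAT in 34.2% against 37.4%, and GGGCGG in 60.5% against 35.7%. In Col3a1 the TATAAA lay 117 bases before the start.

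Type V collagen is built into type I fibrils and sets their diameter. Col5a1 was at 23.5, 26.3, 22.7 and 47 FPKM in Has2_WT and 39, 40.9, 84.2 and 59.4 in Has2_TG, with 1 control inside the transgenic range (log2 change 0.90, SE 0.30, adjusted p = 0.330). Col5a2, which lies tail to tail with Col3a1 on chromosome 1, was at 14.1, 19.5, 18.4 and 25.1 FPKM in Has2_WT and 25.5, 19.4, 43.7 and 38.7 in Has2_TG, again overlapping (log2 change 0.68, SE 0.28, adjusted p = 0.449). The call of Col5a2 was lost without Has2_WT1, Has2_WT2, Has2_WT3, Has2_TG3 or Has2_TG4. Col5a3, the remaining type V chain, was not called. It was at 67.9, 84.2, 95.7 and 130.4 FPKM in Has2_WT and 50.3, 72.4, 127 and 99.4 in Has2_TG, with a log2 change of -0.16 (-0.82 to 0.51). Of the remaining fibrillar members, Col27a1 was at 2.34 ± 0.754 FPKM (SD, n = 4) in Has2_WT and 1.68 ± 0.149 (SD, n = 4) in Has2_TG, and Col11a2 at 0.520 ± 0.371 FPKM in Has2_WT and 0.301 ± 0.205 in Has2_TG (SD, n = 4). Neither was called.

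The FACIT class held the largest change. Col14a1 (ENSMUSG00000022371, chromosome 15 from 55307750 to 55520803, strand +), which binds fibril surfaces and regulates their growth, was at 5.25, 2.50, 3.34 and 6.79 FPKM in Has2_WT and 14.9, 13.1, 23.4 and 18.9 in Has2_TG. All transgenic libraries lay above all controls, with a log2 change of 2.01 (SE 0.31, adjusted p = 0.0540), and of 1.82 without the libraries rich in B cell markers. The endogenous Has2 gene lies on the same chromosome, 1145 kb away. Col16a1, a chain of fibrillin-rich and collagen fibrils, was at 1.08, 2.29, 1.89 and 3.17 FPKM in Has2_WT and 4.69, 4.09, 5.01 and 6.26 in Has2_TG, without overlap (log2 change 1.29, SE 0.31, adjusted p = 0.134). Col12a1 was at 0.313, 0.252, 0.282 and 1.01 FPKM in Has2_WT and 0.808, 1.02, 1.19 and 0.791 in Has2_TG (log2 change 1.06, SE 0.44, adjusted p = 0.454). Has2_WT4 stood among the transgenic libraries for Col12a1, and the call was lost when any library but Has2_WT4 was left out. Col20a1 was at 1.02 ± 0.588 FPKM (SD, n = 4) in Has2_WT and 0.839 ± 0.237 (SD, n = 4) in Has2_TG and was not called (log2 change -0.07, SE 0.50).

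Of the type IV chains, Col4a4 and Col4a5 were called and Col4a1, Col4a2 and Col4a3 were not. Their genes lie head to head in pairs on the chromosome, Col4a1 with Col4a2 on chromosome 8, Col4a3 with Col4a4 on chromosome 1 and Col4a5 with Col4a6 on the X chromosome. Col4a1 and Col4a2, which overlap by 22 bases at their starts, form the ubiquitous network. Col4a1 was at 141, 155, 163 and 221 FPKM in Has2_WT and 129, 119, 186 and 171 in Has2_TG, with a log2 change of -0.17 (-0.63 to 0.28). Col4a2 was at 89.3, 110.3, 119 and 161 FPKM in Has2_WT and 81.1, 90.4, 121 and 123 in Has2_TG, with a log2 change of -0.20 (-0.68 to 0.28). Neither was called, and the intervals do not reach a 2-fold change in either direction. Col4a4 and Col4a5 were called higher at far lower levels. Col4a5 was at 0.743, 0.879, 1.14 and 2.10 FPKM in Has2_WT and 2.60, 1.89, 4.55 and 3.93 in Has2_TG (log2 change 1.37, SE 0.38, adjusted p = 0.206). Col4a4 was at 0.529, 0.438, 0.427 and 0.992 FPKM in Has2_WT and 1.13, 0.937, 1.74 and 1.62 in Has2_TG (log2 change 1.09, SE 0.36, adjusted p = 0.314). For both, Has2_WT4 overlapped the transgenic range. Col4a3, whose start lies 71 bases from that of Col4a4, was at 0.0700, 0.167, 0.0295 and 0.289 FPKM in Has2_WT and 0.573, 0.145, 0.488 and 0.442 in Has2_TG and was not called (log2 change 1.13, SE 0.58).

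Among the type VI chains, Col6a1 was at 54.5, 65.6, 56.8 and 87.4 FPKM in Has2_WT and 74.4, 78.2, 141 and 121 in Has2_TG (log2 change 0.62, SE 0.24, adjusted p = 0.428). Col6a2 was at 32.4, 38.4, 32.5 and 55.4 FPKM in Has2_WT and 37, 41.8, 73.2 and 61.6 in Has2_TG (log2 change 0.41, SE 0.26), and Col6a3 at 15.5, 22.9, 18.6 and 30.7 FPKM in Has2_WT and 21.4, 19.3, 30.7 and 30.7 in Has2_TG (log2 change 0.23, SE 0.24). Only Col6a1 of these 3 abundant chains was called, and Has2_WT4 lay inside the transgenic range for each. The difference between their changes was not tested. Col6a6, a chain that can take the place of Col6a3, was at 1.05, 0.626, 0.514 and 1.37 FPKM in Has2_WT and 1.63, 1.27, 2.44 and 1.53 in Has2_TG (log2 change 0.93, SE 0.36, adjusted p = 0.419). The calls of Col6a1 and Col6a6 were each lost without Has2_WT2, Has2_WT3 or Has2_TG3, and that of Col6a1 also without Has2_WT1 or Has2_TG4.

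Of the other classes 0 of 5 tested members were called. Col15a1, a multiplexin of the zone between basement membrane and stroma, was at 32.3, 57.3, 69.7 and 76.7 FPKM in Has2_WT and 25.5, 33, 66.3 and 50.7 in Has2_TG, with a log2 change of -0.45 (-1.22 to 0.32). The groups overlapped over most of their range. Col18a1, the multiplexin that releases endostatin, was at 21.4 ± 7.35 FPKM (SD, n = 4) in Has2_WT and 21.1 ± 5.69 (SD, n = 4) in Has2_TG (log2 change 0.00, SE 0.27). Col28a1 was at 0.891, 0.889, 0.577 and 1.13 FPKM in Has2_WT and 0.485, 0.565, 0.327 and 0.576 in Has2_TG. It was the only tested collagen whose transgenic libraries all lay below the controls (1 of 26, against 2.11% of all genes), but it did not pass the test (log2 change -0.72, SE 0.35, adjusted p = 0.552). The transmembrane Col23a1 (log2 change -0.19, SE 0.34) and the network-forming Col8a1 (log2 change 0.32, SE 0.43) were at 0.745 to 1.62 and 0.429 to 1.33 FPKM over the 8 libraries.

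**Figure D3:**
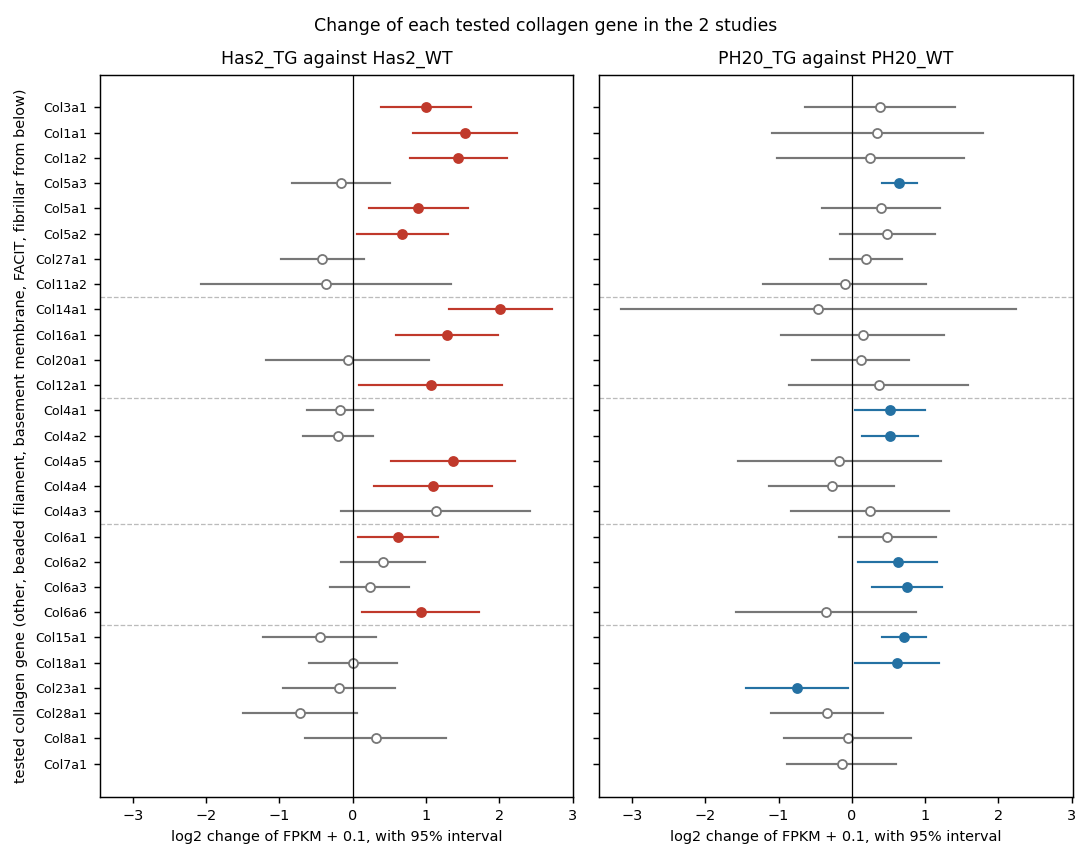
Log2 change (point) and 95% interval (line) of each tested collagen in Has2_TG against Has2_WT (left) and PH20_TG against PH20_WT (right), ordered by class and, within a class, by level; filled coloured points are called at an unadjusted p under 0.05. The filled points of the Has2 study are mostly fibrillar and FACIT genes, and those of the PH20 study are Col5a3, Col4a1, Col4a2, Col6a2, Col6a3, Col15a1, Col18a1 and, below 0, Col23a1.

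Markers of fibroblasts and adipocyte progenitors moved with these collagens. Of 8 such markers, 7 were called higher in Has2_TG and 0 lower, and their summed level was 259.7 to 543 FPKM in Has2_WT and 736 to 1054 in Has2_TG. Pdgfra, a progenitor receptor, was at 5.46, 3.32, 2.24 and 4.88 FPKM in Has2_WT and 9.03, 7.17, 15.1 and 11.3 in Has2_TG. The ratio of Col1a1 to Pdgfra was 17, 22.2, 33.2 and 28.9 in Has2_WT and 21.4, 26.4, 30.4 and 26.4 in Has2_TG, which overlapped. The ratio of Col14a1 to Pdgfra was 0.753 to 1.49 in Has2_WT and 1.55 to 1.82 in Has2_TG, which did not. Pdgfra is 1 of the 8 markers, and no ratio of Col14a1 to the others was taken. Set against Col1a1, Col14a1 overlapped between the groups (34 to 56.7 per 1000 in Has2_WT and 51.1 to 77 in Has2_TG). In these bulk samples, a different number of cells of a type and a different amount of RNA per cell cannot be told apart. Macrophage markers were also called higher (4 of 5, summed 39.9 to 97.4 FPKM against 81.1 to 152), and adipocyte markers (0 of 7) and endothelial markers (0 of 6) were not. The part of these cell types in the collagen changes was not tested.

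In the PH20 study, 7 of the 27 tested collagens were higher in PH20_TG and 1 was lower, against 3.2% of all tested genes called higher and 3.39% called lower. The median log2 change of the 27 was 0.25, against 0.01 over all 12532 genes tested. The members higher were Col5a3 (1 of 8 fibrillar), Col4a1 and Col4a2 (2 of 5 basement membrane), Col6a2 and Col6a3 (2 of 4 beaded filament) and Col15a1 and Col18a1 (2 of 6 other), and 0 of 4 FACIT members were called. The lowest adjusted p was 0.506, so that no collagen passed the adjusted threshold. Groups did not overlap for Col5a3, Col4a2 and Col15a1 (3 of 27, against 2.21% of all genes). Without the library labelled PH20_TG1, 4 collagens were higher (Col5a3, Col4a2, Col6a3 and Col15a1) and 0 lower. Without PH20_WT1 and PH20_WT3, which were rich in B cell markers, 4 were higher (Col5a3, Col6a2, Col6a3 and Col15a1) and 0 lower. Leaving out PH20_WT3 or PH20_WT4 alone also left 4 higher and 0 lower. Without PH20_TG4, which had 5 Spam1 reads and Has2 near the level of the library labelled PH20_TG1, 6 were higher and 1 lower.

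Col5a3 was the fibrillar chain with the tightest groups. It was at 69, 72.7, 72.3 and 68.5 FPKM in PH20_WT and 111, 120.4, 107 and 106 in PH20_TG. Its log2 change was 0.65 (SE 0.11, adjusted p = 0.506), and 0.65 without the library labelled PH20_TG1. The major fibrillar chains had no such separation. Col1a1 was at 279, 86.7, 179 and 266 FPKM in PH20_WT and 553, 91.7, 131 and 458 in PH20_TG, so that the library labelled PH20_TG1 and PH20_TG4 lay above all controls and the other 2 within the control range. Col3a1 was at 405, 170.5, 276 and 334 FPKM in PH20_WT and 627, 187, 251 and 625 in PH20_TG, and Col1a2 at 175, 59.5, 111 and 144 FPKM in PH20_WT and 277, 54.8, 85.7 and 258 in PH20_TG, with the same 2 libraries above all controls. The log2 changes were 0.35 (-1.09 to 1.78) for Col1a1, 0.38 (-0.64 to 1.40) for Col3a1 and 0.25 (-1.03 to 1.54) for Col1a2. Col5a1 (log2 change 0.40, SE 0.35), Col5a2 (log2 change 0.49, SE 0.29), Col27a1 (log2 change 0.19, SE 0.22) and Col11a2 (log2 change -0.10, SE 0.49) were not called.

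Of the 4 tested FACIT members, Col14a1 had the widest spread within PH20_TG. It was at 19.6, 3.15, 9.64 and 10.3 FPKM in PH20_WT and 33.4, 2.27, 0.718 and 28.4 in PH20_TG, where the library labelled PH20_TG1 and PH20_TG4 held the 2 highest values of all 16 libraries and PH20_TG2 and PH20_TG3 the 2 lowest. With this spread its log2 change of -0.46 had an interval of -3.15 to 2.24. Col16a1 was at 6.47, 2.51, 3.48 and 3.44 FPKM in PH20_WT and 8.99, 2.63, 1.95 and 6.36 in PH20_TG (log2 change 0.15, SE 0.49). Col12a1, at 0.309 to 0.691 FPKM in PH20_WT and 0.201 to 1.81 in PH20_TG, had a log2 change of 0.36 (SE 0.54), and Col20a1 one of 0.13 (SE 0.29).

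Of the basement membrane chains, Col4a1 was at 95.7, 177, 133 and 109.7 FPKM in PH20_WT and 182, 222, 159 and 165 in PH20_TG (log2 change 0.53, SE 0.21, adjusted p = 0.709). Col4a2 was at 78.6, 117, 99.3 and 86.4 FPKM in PH20_WT and 138, 166, 118 and 125 in PH20_TG (log2 change 0.52, SE 0.17, adjusted p = 0.688). PH20_WT2 overlapped the transgenic range for Col4a1 but not for Col4a2. The 2 chains moved by nearly the same amount, and the call of Col4a2 held with each library left out in turn. Without the B cell-rich libraries the changes were 0.37 for Col4a1 and 0.43 for Col4a2, and neither passed. Col4a5 was at 3.15, 0.965, 1.91 and 2.73 FPKM in PH20_WT and 3.27, 0.569, 1.19 and 4.15 in PH20_TG (log2 change -0.17, SE 0.61), and Col4a4 at 1.04, 0.808, 0.774 and 0.880 FPKM in PH20_WT and 1.16, 0.417, 0.407 and 1.16 in PH20_TG (log2 change -0.28, SE 0.38). In both, the library labelled PH20_TG1 and PH20_TG4 were high and PH20_TG2 and PH20_TG3 low, as for the type I chains. Col4a3 was at 0.0701 to 0.465 FPKM in PH20_WT and 0.182 to 0.474 in PH20_TG (log2 change 0.25, SE 0.47).

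Col6a3 was at 23.9, 16.1, 19.1 and 19 FPKM in PH20_WT and 42.4, 22, 33.4 and 36.3 in PH20_TG, with PH20_TG2 inside the control range (log2 change 0.75, SE 0.21, adjusted p = 0.664). Col6a2 was at 48.9, 36.1, 41 and 36 FPKM in PH20_WT and 87.6, 41.3, 54.6 and 74.8 in PH20_TG (log2 change 0.62, SE 0.24, adjusted p = 0.703). The call of Col6a3 held with each library left out, and that of Col6a2 was lost without PH20_WT2, PH20_WT3, PH20_WT4, the library labelled PH20_TG1 or PH20_TG4. Col6a1, at 99.4, 63.4, 79 and 66.9 FPKM in PH20_WT and 166, 73.9, 75.2 and 139 in PH20_TG, was not called (log2 change 0.49, SE 0.29). Col6a6 was at 1.81, 0.603, 0.968 and 0.554 FPKM in PH20_WT and 1.13, 0.532, 0.222 and 1.32 in PH20_TG (log2 change -0.35, SE 0.54).

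Both multiplexins were called. Col15a1 (ENSMUSG00000028339, chromosome 4 from 47208161 to 47313167, strand +) was at 26.1, 31.9, 30.3 and 29.8 FPKM in PH20_WT and 56.5, 52.3, 44.9 and 41.6 in PH20_TG. The groups did not overlap, and the log2 change was 0.72 (SE 0.13, adjusted p = 0.563). Col18a1 was at 14.1, 26, 18.6 and 14 FPKM in PH20_WT and 36.8, 30.7, 22.5 and 21 in PH20_TG (log2 change 0.62, SE 0.25, adjusted p = 0.719), with 1 control inside the transgenic range. The transmembrane Col23a1 was the only collagen called lower, at 1.66, 1.13, 1.39 and 2.41 FPKM in PH20_WT and 0.621, 0.999, 0.794 and 1.35 in PH20_TG (log2 change -0.75, SE 0.30, adjusted p = 0.725), and the call was lost in 6 of 8 fits without 1 library. Col7a1, the anchoring fibril chain tested in this study alone, was at 0.335 to 0.716 FPKM in PH20_WT and 0.361 to 0.532 in PH20_TG (log2 change -0.14, SE 0.33). Col28a1 (log2 change -0.34, SE 0.34) and Col8a1 (log2 change -0.06, SE 0.38) were not called.

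The progenitor markers divided the PH20_TG libraries the way the fibrillar chains did. Their score (the mean log2(FPKM + 0.1) of the 8 markers) was 6.03, 3.46, 3.07 and 6 in PH20_TG and 6, 4.12, 5.24 and 5.28 in PH20_WT, and 0 of 8 markers were called. Dpp4, a marker of interstitial progenitors, was at 16.1, 1.09, 0.266 and 15.2 FPKM in PH20_TG and 20.6, 3.23, 11.7 and 9.06 in PH20_WT. Summed fibrillar FPKM was 1687, 511, 626 and 1565 in PH20_TG and 1005, 433, 698 and 877 in PH20_WT. For the basement membrane class the sums were 325, 389.9, 278 and 296 and 179, 296, 235 and 199.9, where PH20_TG2, low in fibrillar chains, was the highest of all 16 libraries. The ratio of Col4a1 to the endothelial marker Pecam1 was 5.88 to 10.7 in PH20_TG and 3.84 to 5.55 in PH20_WT, without overlap, as was that of Col15a1 (1.48 to 2.52 and 1 to 1.25), while that of Col18a1 overlapped. Pecam1 itself had a log2 change of -0.15 (SE 0.15), below those of most of the 6 endothelial markers. Egfl7, a secreted endothelial factor, was called higher by as much as Col4a1 (log2 change 0.54, SE 0.20, adjusted p = 0.703), Tie1 had a log2 change of 0.37 (SE 0.18), and the other 3 lay between -0.17 and 0.10. The endothelial markers summed to 133 to 160.3 FPKM in PH20_TG and 96.1 to 163 in PH20_WT. Set against the adipocyte marker Adipoq, Col4a1, Col15a1 and Col5a3 overlapped between the PH20 groups. The ratio of Col3a1 to Pdgfra did not overlap (53.5 to 106 in PH20_TG and 39.1 to 49.2 in PH20_WT). Those of Col1a1 (28.6 to 51.9 in PH20_TG and 25 to 37.1 in PH20_WT) and Col14a1 (0.157 to 2.85 and 0.909 to 1.9) overlapped. Among other markers, 7 of 8 of skeletal muscle and 4 of 6 of B cells were called lower in PH20_TG. Their scores were added to the fit in turn, and whether these cells cause the collagen changes was not tested. With the B cell score in the fit, Col4a1, Col4a2, Col18a1 and Col23a1 lost their calls. With the muscle score in the fit, Col5a3 (0.57), Col6a3 (0.90) and Col15a1 (0.53) kept their calls, Col4a1, Col4a2, Col6a2, Col18a1 and Col23a1 lost theirs, and Col20a1 and Col27a1 were called higher.

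**Figure D4:**
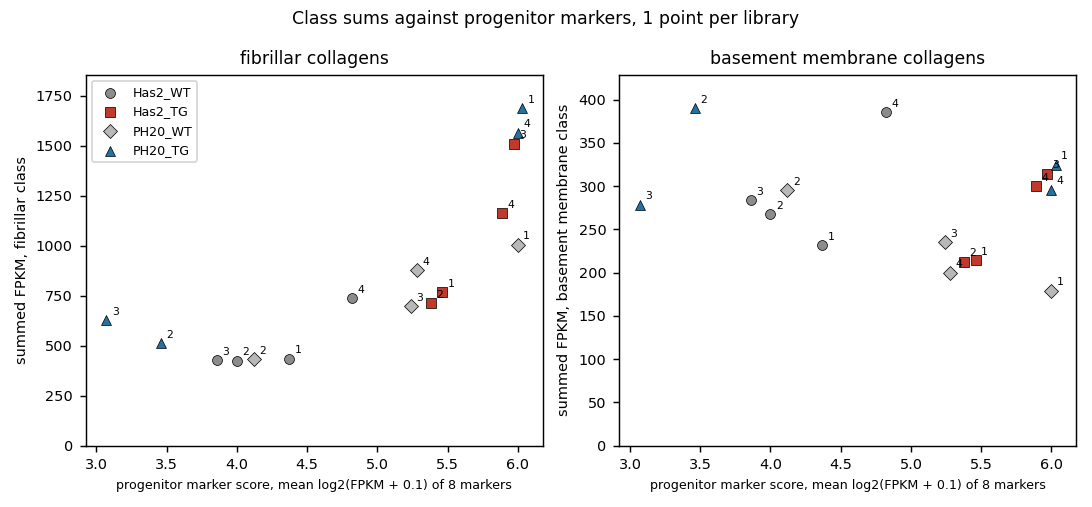
Summed FPKM of the fibrillar class (left) and the basement membrane class (right) in each library against the progenitor marker score, the mean log2(FPKM + 0.1) of 8 markers; numbers are the library numbers within a group. The fibrillar sums above 1000 FPKM all lie at scores of 5.89 or more, whereas the basement membrane sum reaches 390 FPKM at a score of 3.46.

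The effects of the 2 transgenes were then set against each other in 1 fit of the 16 libraries (the log2 change in the Has2 study minus that in the PH20 study). Of 27 collagens tested, 1 had a Has2 effect above the PH20 effect and 4 below it, against 4.03% and 3.68% of all 12593 genes tested. Col15a1 differed by -1.17 (SE 0.40, adjusted p = 0.598), Col5a3 by -0.81 (SE 0.33, adjusted p = 0.614), Col4a2 by -0.72 (SE 0.28, adjusted p = 0.611) and Col4a1 by -0.70 (SE 0.30, adjusted p = 0.614). These are the collagens whose change was below 0 in the Has2 study and called higher in the PH20 study. Col4a4 was the member with the larger Has2 effect, by 1.37 (SE 0.51, adjusted p = 0.606). Col14a1 (2.47, interval -0.34 to 5.28) and Col1a1 (1.18, interval -0.43 to 2.79) did not pass, although they were called in the Has2 study and not in the PH20 study. Without the library labelled PH20_TG1, 11 members were called, with Col1a1, Col1a2, Col14a1, Col16a1, Col4a5 and Col6a6 added to the 5. Without PH20_TG4, 9 were called, without PH20_WT2 8, and without Has2_TG1 3, while the fit with the skeletal muscle score kept Col4a4 alone.

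The 2 control groups were compared as well, where strain background, litter and processing cannot be told apart. Only Col15a1 was called, higher in Has2_WT, among 27 tested, against 5.61% of all genes called higher and 4.66% lower in Has2_WT. Its log2 difference was 0.93 (SE 0.28, adjusted p = 0.362), with 32.3 to 76.7 FPKM in Has2_WT and 26.1 to 31.9 in PH20_WT. Col15a1 in PH20_TG (41.6 to 56.5 FPKM) thus lay within the range of Has2_WT. With the skeletal muscle score in the fit the difference was 0.57 and was not called. Leaving out Has2_WT4 or PH20_WT2 gave 5 calls, Has2_WT1 gave 4, the library labelled PH20_TG1 or PH20_TG2 gave 3, and Has2_WT3, PH20_WT4 or PH20_TG3 gave 2. Among the type I chains, the log2 difference of Has2_WT from PH20_WT was -0.92 for Col1a2 (-1.95 to 0.10) and had an interval of -2.14 to 0.14 for Col1a1, and neither passed the test.

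The composition of the collagen RNA was described by the share of each class in the summed collagen FPKM of a library, with no test. The fibrillar share was 52, 46.8, 46.8 and 51.9% in Has2_WT and 65.1, 62.5, 68.7 and 65.1% in Has2_TG, without overlap. In PH20_WT it was 70.2, 47.3, 61.1 and 69.3% and in PH20_TG 68.8, 45.1, 54.8 and 70.5%, so that each PH20 group spanned both of the levels seen in the Has2 study. The basement membrane share was 27.8, 29.4, 31.1 and 27.1% in Has2_WT and 18.1, 18.7, 14.3 and 16.8% in Has2_TG. It was 12.5, 32.3, 20.6 and 15.8% in PH20_WT and 13.2, 34.5, 24.4 and 13.3% in PH20_TG. The beaded filament share stayed between 9.71% and 14.3% in all 16 libraries. FACITs took 0.738% to 0.999% in Has2_WT, 1.38% to 1.79% in Has2_TG and 0.396% to 2.01% in the PH20 study. The shares add to 100, so a larger share of fibrillar chains lowers the others without any change in their level.

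**Figure D5:**
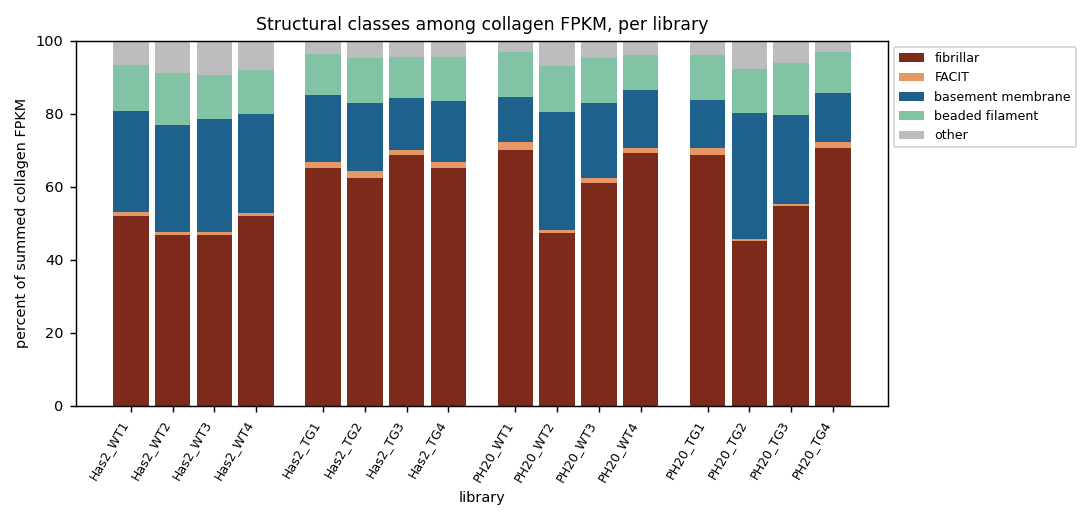
Share of each structural class in the summed collagen FPKM (percent, stacked bars from 0 to 100) of each of the 16 libraries. The fibrillar share is 46.8% to 52.0% in Has2_WT and 62.5% to 68.7% in Has2_TG, and in the PH20 study PH20_WT2, PH20_TG2 and PH20_TG3 have lower fibrillar shares than the other 5 libraries.

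Ratios of chains within a library do not depend on the scaling between libraries. Chains of the same type differed in how closely they kept to each other. Col1a1 to Col1a2, chains that join 2 to 1 in the protein, was 1.46 to 1.61 in Has2_WT and 1.51 to 1.90 in Has2_TG. Col4a2 to Col4a1 was 0.630 to 0.821 over the 16 libraries. Both overlapped between the groups of each study, and the highest Col1a1 to Col1a2 ratio of the 16 libraries was 1.37 times the lowest. Other pairs within a type ranged more widely, with 1.73 times for Col5a2 to Col5a1, 2.04 times for Col6a3 to Col6a1 and 8.34 times for the low Col4a4 to Col4a3, all overlapping in both studies. Col3a1 to Col1a1 was 1.85 to 2.31 in Has2_WT and 1.21 to 1.71 in Has2_TG, Col5a1 to Col1a1 was 0.253 to 0.358 and 0.184 to 0.216, and neither pair of groups overlapped. The type V chains also moved apart, since Col5a3 to Col5a1 was 2.77 to 4.21 in Has2_WT and 1.29 to 1.77 in Has2_TG. Between types, Col4a1 to Col1a1 was 1.52 to 2.20 in Has2_WT against 0.406 to 0.666 in Has2_TG, and 0.343 to 2.04 in PH20_WT against 0.329 to 2.43 in PH20_TG. Within type VI, Col6a2 to Col6a1 was 0.573 to 0.634 in Has2_WT and 0.497 to 0.534 in Has2_TG, a small shift that did not overlap.

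Genes that act on collagens were counted in 5 lists, to be read against the shares of all genes called higher and lower, 6.25% and 3.75% in the Has2 study and 3.2% and 3.39% in the PH20 study. Of 26 tested genes of collagen maturation, 12 were higher and 0 lower in Has2_TG, and 7 were higher and 0 lower in PH20_TG. In the Has2 study the smallest p-values were those of Bmp1, which cleaves procollagen (log2 change 1.29, SE 0.23, adjusted p = 0.0687), Pcolce2, which enhances that cleavage (log2 change 2.09, SE 0.40, adjusted p = 0.0776), and the crosslinking enzyme Loxl1 (log2 change 1.18, SE 0.24, adjusted p = 0.0842). In the PH20 study they were those of the lysyl hydroxylases Plod1 (log2 change 0.42, SE 0.12, adjusted p = 0.664) and Plod2 (log2 change 0.68, SE 0.23, adjusted p = 0.692). Plod1 was at 13.3 ± 1.05 FPKM (SD, n = 4) in PH20_WT and 17.9 ± 1.98 (SD, n = 4) in PH20_TG. The medians of the log2 change over the maturation list were 0.48 and 0.32 in the 2 studies, beside -0.03 and 0.01 over all genes.

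Of 11 tested collagen receptors, 5 were higher in Has2_TG and 2 in PH20_TG, and 0 were lower in either, beside 6.25% and 3.2% of all genes called higher. Antxr1 (log2 change 1.82, SE 0.33, adjusted p = 0.0741), the fibrillar collagen receptor Ddr2 (log2 change 1.22, SE 0.30, adjusted p = 0.139) and Antxr2 (log2 change 0.84, SE 0.24, adjusted p = 0.216) led in the Has2 study. Ddr1, the other discoidin domain receptor, which also binds type IV collagen, led in the PH20 study, at 4.98 ± 0.652 FPKM (SD, n = 4) in PH20_WT and 11.2 ± 5.53 (SD, n = 4) in PH20_TG (log2 change 1.05, SE 0.30, adjusted p = 0.664), and was followed by Cspg4 (log2 change 0.78, SE 0.31, adjusted p = 0.709). Of 11 tested genes of collagen degradation, 7 were higher and 1 (Mmp15) lower in Has2_TG, with Timp2 (log2 change 1.70, SE 0.35, adjusted p = 0.0870), the gelatinase Mmp2 (log2 change 1.48, SE 0.34, adjusted p = 0.111) and Mmp3 (log2 change 1.27, SE 0.31, adjusted p = 0.136) in front, and 0 of 11 were called in PH20_TG. Of 13 tested fibril partners, 7 were higher and 1 (Fmod) lower in Has2_TG, led by Fn1 (log2 change 2.19, SE 0.42, adjusted p = 0.0776), Dcn (log2 change 1.58, SE 0.31, adjusted p = 0.0776) and Ogn (log2 change 1.69, SE 0.36, adjusted p = 0.0906), and 0 were called in PH20_TG. Of 11 basement membrane partners, 4 were higher in Has2_TG, with the laminin chains Lama2 (log2 change 1.37, SE 0.34, adjusted p = 0.142) and Lamc1 (log2 change 0.70, SE 0.22, adjusted p = 0.306) and the linker Nid1 (log2 change 0.67, SE 0.23, adjusted p = 0.347) in front, although Col4a1 and Col4a2 were not called there. In PH20_TG 1 of the 11 was higher, perlecan (Hspg2, log2 change 0.43, SE 0.16, adjusted p = 0.703). No gene of these lists passed the adjusted threshold in either study, and the lists were chosen with results of these data known.

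The remaining 17 members were under the minimum of reads in every comparison. In the fibrillar class, Col24a1 had 0 to 62 reads per library, Col11a1 0 to 45 and the cartilage chain Col2a1 0 to 9. Of the FACITs, Col9a3 had 0 to 77 reads, Col9a2 0 to 24, Col22a1 0 to 11, Col19a1 0 to 21 and Col9a1 0 to 2. Col9a1 had its only reads in PH20_TG4. Col4a6 had 0 to 21 reads, although its neighbour Col4a5 starts 1308 bases away and had 76 to 572. Col6a5 had 0 to 111 and Col6a4 0 to 150 reads. In the last class, Col17a1, a chain of epithelial hemidesmosomes, had 0 to 159 reads, with the highest value in Has2_TG4 (1.32 FPKM), the library that also held the basal keratins Krt5 (5.33 FPKM) and Krt14 (4.35 FPKM). Col13a1 had 0 to 40 reads, Col8a2 0 to 49, Col26a1 0 to 46, Col10a1 0 to 5 and Col25a1 0 to 3. At this depth a library without a read allows up to 3 reads of a gene. With no minimum of reads in the fit, none of the 17 was called in the Has2 or the PH20 study, Col13a1 was called in the difference between the effects (the Has2 effect lower), and Col9a2 was called between the controls (lower in Has2_WT).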

How the data were processed

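Libraries of iWAT total RNA (4 per group) were made with an Illumina TruSeq kit. Per the submitters' notes and the methods, the authors used FastQC 0.11.9, MultiQC 1.12, STAR 2.7.9a on GRCm38 and STAR's read counts per gene, tested them with DESeq2 and deposited FPKM per gene and library. The strand setting of the counting is not given in the sources used here. The library total behind each FPKM is 0.886 to 1.14 times the sum of reads on genes, so the deposited FPKM carry a scaling between libraries. Multiplied by length and total, 100% of the values were whole reads (within 0.01), and depth was 14421692 to 26751729 reads per library. The labels number the samples within a group without naming the mouse of each, so p-values measure only the spread between these samples. Among the 120 pairs of libraries none agreed within sampling noise (chi-square over degrees of freedom 28.7 or more).

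The 44 members were matched by symbol, and all 44 have the same start and end in GENCODE release 21. Levels were tested on log2(FPKM + 0.1) with limma 3.58.1 (R 4.3.3), moderated, two-sided, with a variance trend, where a gene averaged 50 reads or more. Each study was fitted on its own 8 libraries, and the difference of the effects and the controls on all 16. Calls are at an unadjusted p under 0.05, and adjusted p-values (Benjamini-Hochberg) run over all genes tested. On simulated data for the Has2 study (12605 genes), 92% of genes changed 2-fold and 100% of those changed 4-fold were called. Of unchanged genes 4.92% were called. At the adjusted threshold 42% of the 2-fold genes and 100% of the 4-fold genes passed. The simulated spread between libraries was set by the same fixed value for all genes, so these rates need not hold for genes that vary more. Members, classes and lists were chosen with earlier results of these data known. Named are all members, with every library's value for each called member and the highest of each class, and of each list the called genes with the 3 smallest p-values (Has2) or 2 (PH20). The glycine repeat was read by translating coding sequences, and runs of at least 5 triplets were counted. Alternatives were other pseudocounts, minimums, scalings, weights, blocks and covariates, and each library left out. Leaving out the 4 libraries rich in B cell markers, and the Col4a1 stretch across the end of a run, were chosen after seeing the data. The ratios to Pdgfra, Adipoq and Pecam1 were not among the planned ratios. Those of Col5a3 to Col5a1 and of Col4a4 to Col4a3 were also added to the plan later.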

Additional observations from a re-analysis of the deposited data

Results flagged for a closer look

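The Has2 effect and the PH20 effect differed for 5 of 27 collagens in the test of the difference itself (limma, unadjusted p under 0.05, 0 past the adjusted threshold of 0.05, where the lowest adjusted p was 0.598). Of the 27, 1 had a Has2 effect above the PH20 effect and 4 below it, against 4.03% and 3.68% of all 12593 genes tested. The log2 Has2 effect lay below the PH20 effect by -0.70 for Col4a1, -0.72 for Col4a2, -0.81 for Col5a3 and -1.17 for Col15a1, and above it by 1.37 for Col4a4. Of these, Col4a2, Col15a1 and Col4a4 kept the call with each of the 16 libraries left out in turn. Col4a1 lost it without Has2_WT4, Has2_TG1, Has2_TG2, PH20_WT1, PH20_WT4 or PH20_TG2, and Col5a3 without Has2_WT4, Has2_TG1 or Has2_TG2. Other settings cost more calls. With the skeletal muscle score in the fit only Col4a4 was called. Quantile normalization lost Col4a1, Col4a2 and Col5a3, and leaving out the B cell-rich libraries lost Col4a1 and Col4a4.

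In 4 of 106 groups of 4 libraries, 1 library stood far from the other 3 (3.77%, where chance alone gives about 1 in 20). Has2_WT4 was at 294 FPKM for Col3a1, against 167 to 172 in the other Has2_WT libraries, at 1.01 FPKM for Col12a1, against 0.252 to 0.313, and at 1.28 FPKM for Col8a1, against 0.429 to 0.492. PH20_TG4 was at 0.532 FPKM for Col7a1, against 0.361 to 0.371. Has2_WT4 also had the highest progenitor marker score of its group (4.82, against 3.86 to 4.37), and the part of those cells in its collagen levels was not tested.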

How the results depend on the processing

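In the Has2 study the 12 collagens called higher became 10 with no minimum of reads, only genes of mean FPKM 1 or more, or the replicate block. They became 13 with no variance trend, 6 with the B cell score added to the fit, 5 without Has2_WT1 and Has2_WT2, and 0 after adjustment. With each library left out the count ranged from 8 to 14. The count called lower, 0, became 1 with all 16 libraries in one fit, the replicate block, no variance trend, the B cell score or without Has2_WT1 and Has2_WT2, and ranged from 0 to 1 with each library left out. In the PH20 study the 7 called higher became 3 with quantile normalization, 4 with the B cell score, 4 without PH20_WT1 and PH20_WT3, and 0 after adjustment. With the skeletal muscle score 5 were higher, of which 3 were among the 7. The count ranged from 4 to 8 with each library left out. The 1 called lower became 0 with all genes kept, only genes of mean FPKM 1 or more, quantile normalization, either covariate, without the B cell-rich libraries and after adjustment, and ranged from 0 to 1. The 5 differences between effects became 6 with no minimum of reads and 4 with only genes of mean FPKM 1 or more. They became 3 with quantile normalization, 8 with voom weights, 8 with the replicate block and 1 with the skeletal muscle score. Without the 4 B cell-rich libraries 3 were left, and 0 after adjustment. The count ranged from 3 to 11 with each library left out. The 1 difference between controls became 2 with a pseudocount of 1, no minimum of reads or no variance trend, 3 with voom weights or the replicate block, 0 with the skeletal muscle score, 2 without the B cell-rich libraries and 0 after adjustment, and ranged from 1 to 5. The cause of these shifts was not tested.

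No called member changed its sign under any setting run. In the Has2 study Col1a1, Col1a2, Col3a1, Col14a1 and Col16a1 kept their calls under every setting but adjustment. These settings included each library left out and the B cell-rich libraries left out. In the PH20 study Col5a3, Col6a3 and Col15a1 did the same. The adjusted p in the Has2 study depended on the setting. It ran from 0.0153 to 0.438 for Col14a1, 0.0295 to 0.340 for Col1a2 and 0.0433 to 0.340 for Col1a1. Replicate numbers do not pair the samples by the labels. Same-numbered libraries had correlations of their deviations from -0.18 to 0.42, and under the replicate block 10 collagens were higher in Has2_TG and 7 in PH20_TG.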
